A study of Mus musculus with 2 samples.

Results

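The genes described here encode small heat shock proteins and the cytosolic chaperones of the HSP70 and HSP90 systems, with their regulators. A list of 10 symbols set the membership: the small heat shock protein genes Cryab, Hspb1 and Hspb8, the HSP70 and HSP90 genes Hspa8, Hsp90aa1 and Hsp90ab1, and the regulators Hsf1, Bag3, Dnajb1 and Hsph1. Each was matched by symbol to the Ensembl identifiers of the deposited tables, which found 9 of the 10 among 11405 listed genes. Hspb8 was not matched and is not analysed here. The samples were MS1 cells, a mouse line of endothelial cells derived from pancreatic islets and immortalised, infected with lentivirus that carried a short hairpin RNA. The hairpin targeted LacZ, a bacterial gene, in the control (genotype label wt) and Pspc1, which encodes a paraspeckle RNA-binding protein, in the knockdown. There was 1 library per group, so 2 in all. The labels used here do not say whether infected cells were cloned or pooled, or how long after infection they were collected.

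Small heat shock proteins bind unfolding proteins without using ATP and hold them in a form that can be refolded. HSP70 and HSP90 refold and mature client proteins in cycles driven by ATP, with J-domain proteins, nucleotide exchange factors and other co-chaperones setting the pace. The transcription factor HSF1 induces many of these genes after heat or other stress to proteins. In endothelial cells HSPB1 is known for its ties to actin filaments, and HSP90 for its binding to endothelial nitric oxide synthase.

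Poly-A RNA was sequenced, and values are given as deposited, control library first. Read numbers were inferred from the step between values in each library. They came to 64009912 for the control and 53518762 for the knockdown, and every listed gene had a value above 0. The targeted gene Pspc1 was listed at 28.8 for the control and at 3.78 for the library labelled as its knockdown, 7.62-fold less. Of 18 endothelial marker genes 15 were listed (Cldn5, Vwf and Sox17 were not), with a summed value of 8504 under the LacZ hairpin and 8851 under the Pspc1 hairpin. Of the 14 with a mean of at least 20, 7 had a ratio below 1, among them Cdh5 (859 and 511), Kdr (149 and 77.3) and Sox18 (82.5 and 47.3), and 7 above 1, among them Esam (376 and 566). No islet endocrine marker was listed (0 of 8), and the fibroblast and the smooth muscle lists had 1 listed gene each, at values of 2.38 or less. Of 8 epithelial and duct markers only Krt18 and Krt19 were listed, with summed values of 47.7 and 152.1. Krt19 met the size rule given below as higher (23.8 and 115.2) and held rank 1 of 3629 from the highest ratio. Of 8 leukocyte markers only Cd68 was listed (102.7 and 123.7). The part of these markers in the results below was not tested. Since each group is 1 library, no value has a replicate error, no difference has a replicate check and no p-value was computed. A change was called when the mean of both values was at least 50 and the fold at least 2. Log2 ratios (knockdown over control) were taken after 0.5 was added to each value, so it understates changes of low genes. Counting intervals (95%, exact conditional binomial) belong to the ratio without that addition and compare 2 libraries, not 2 conditions. They rest on the inferred read numbers.

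The 2 small heat shock protein genes measured, Cryab and Hspb1, stood higher in the knockdown library, while the abundant Hspa8 and Hsp90ab1 hardly differed. This does not extend to the whole class. Hspb8 was not matched, and 3 other small heat shock protein genes had means under 20 and ratios in either direction. Cryab met the size rule as higher, Hspb1 came close to it, and no member met it as lower. The co-chaperone genes Bag3 and Dnajb1 had higher values in the knockdown library and Hsph1 a lower one. Hsp90aa1 had a much lower value in the knockdown library, at a level too low for the rule. Of the 8 members with a mean of at least 50, 1 was called higher, against 0.551% of the 3629 genes tested, and 0 were called lower, against 0.937%. Over all genes these were 20 higher and 34 lower, and scaling by total reads gave 17 and 50, by the trimmed mean of M values 23 and 25. At 1.5-fold 3 of the 8 were higher (Cryab, Hspb1 and Bag3) and 0 lower, where all genes gave 3.39% and 3.89%. With so few members these counts describe the genes one by one and say nothing particular to the list.

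**Figure D1:**
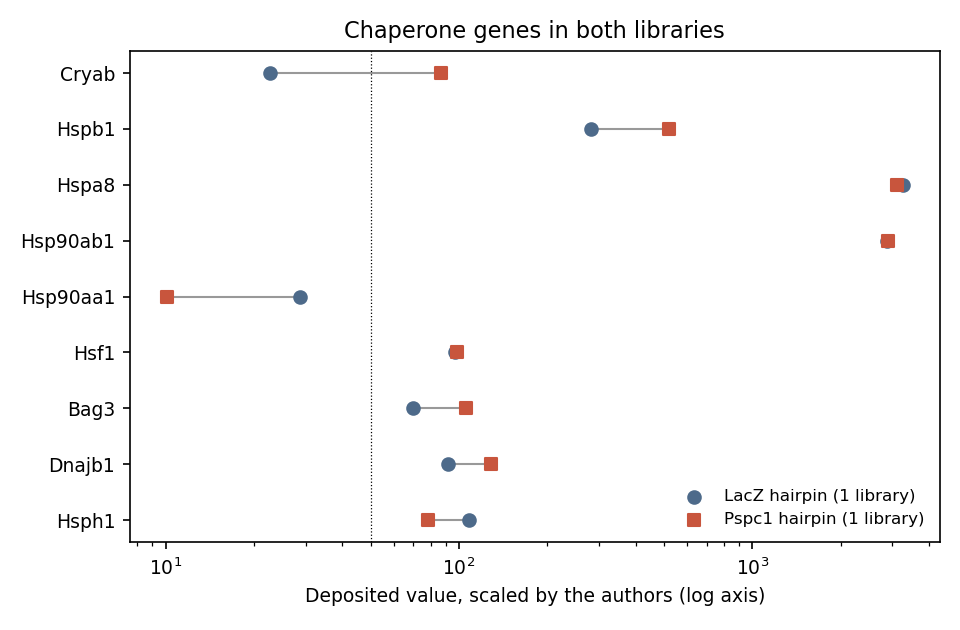
Deposited values of the 9 listed genes (horizontal log axis) in the control library (blue circles) and the knockdown library (red squares), joined by a line, with 1 library per group and no error bars. Cryab goes from 22.7 to 87.1 and Hspb1 from 282 to 521, Hsp90aa1 from 28.8 to 10.1, and the symbols of Hspa8, Hsp90ab1 and Hsf1 nearly coincide. The dotted line marks a value of 50.

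Cryab encodes alpha B-crystallin, a small heat shock protein of the lens and of muscle that other cells make under stress. The gene (ENSMUSG00000032060) lies on mm10 chromosome 9, 50751325 to 50756636, plus strand. Its value was 22.7 under the LacZ hairpin and 87.1 under the Pspc1 hairpin. The knockdown library is thus 3.84-fold higher, from 1482 and 4424 reads. The log2 ratio was 1.92, with a counting interval of 1.85 to 2.03 for the ratio without the added 0.5. In a bulk library, more RNA per cell and more cells that express a gene cannot be told apart. Cryab held rank 3 from the highest ratio among the 3629 genes of mean 50 or more. Its mean of 54.9 lies close to the minimum, so Cryab drops out of the rule at a minimum of 100. Genes with the nearest log2 ratio were Cebpd, a transcription factor (1.71, values of 26.9 and 89.0), the interferon gamma receptor subunit Ifngr2 (1.68) and the focal adhesion protein zyxin, Zyx (1.66). That likeness rests on a single ratio over 2 libraries. Exons of Cryab overlap those of the adjacent small heat shock protein gene Hspb2 by 252 bp on the opposite strand. Without a stated strand setting, reads there cannot be assigned to either gene, and Hspb2 was not listed in the tables.

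Hspb1 encodes HSP25, the mouse counterpart of human HSP27. It (ENSMUSG00000004951, mm10 chromosome 5, 135887919 to 135889563, plus strand) was the most abundant small heat shock protein gene in both libraries. Its value was 282 under the LacZ hairpin and 521 under the Pspc1 hairpin, 1.85-fold higher. The log2 ratio of 0.89 (interval 0.86 to 0.91) did not meet the rule. Hspb1 held rank 34 of 3629 from the highest ratio. Of the 50-base words in its annotated transcripts, 50.1% also occur in 2 other annotated genes, mainly in Hsp25-ps1, and neither of these was listed. How the authors treated reads that map to several places was not given in the sources used here, so the level of Hspb1 carries that uncertainty. Per kb of merged exons, Hspb1 exceeded Cryab 17.8-fold in the control library and 8.58-fold in the knockdown library. Together both genes had a summed value of 304 under the LacZ hairpin and 608 under the Pspc1 hairpin.

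Among the other small heat shock protein genes of a list of 7, 3 were listed and all lay far under the minimum. Hspb6 had 9.65 and 8.12, Hspb11, a distant relative that serves in ciliary transport, 9.64 and 10.7, and Hspb9 0.736 and 1.38. None of these reached a mean of 20, and all were singled out with their values known.

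**Figure D2:**
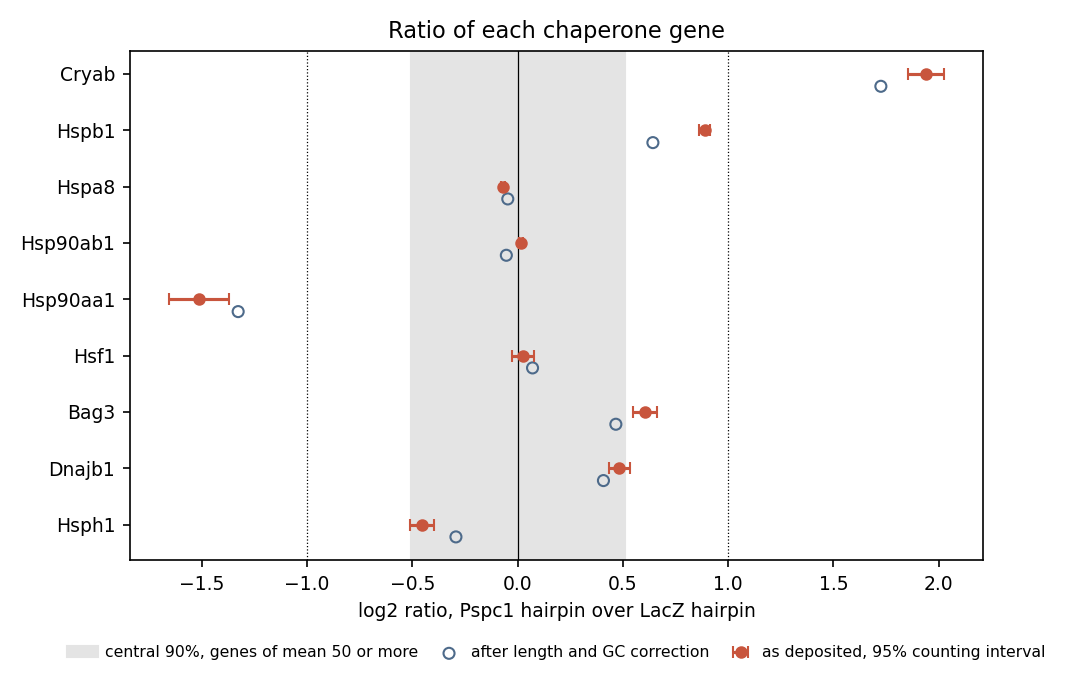
log2 ratio of knockdown over control for the 9 listed genes, as deposited without an added constant (red points, bars are 95% counting intervals) and after a correction for length and GC content (open circles). The grey band holds the central 90% of uncorrected log2 ratios of genes of mean 50 or more, from -0.50 to 0.51. Dotted lines mark 2-fold. Cryab and Hspb1 lie to the right of the band and Hsp90aa1 to the left, with and without the correction. Hsp90aa1, at a mean of 19.4, lies under the level of the band's genes, and no band of corrected ratios is drawn.

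Hspa8 encodes HSC70, the constitutive HSP70 of the cytosol. It was among the most abundant of all listed genes, at rank 22 by mean value, with 3264 under the LacZ hairpin and 3115 under the Pspc1 hairpin. The log2 ratio was -0.07 (interval -0.08 to -0.06), and it stayed between -0.17 and -0.02 under all 6 alternative scalings, pseudocounts and corrections. Hspa8 (ENSMUSG00000015656, mm10 chromosome 9, 40800984 to 40810087, plus strand) shares 39.4% of its 50-base words with 16 other annotated genes, most of them with Gm15459. The stress-induced HSP70 gene Hspa1b had 27.0 and 30.3 (log2 ratio 0.16). Its neighbour Hspa1a is near-identical, so this level is uncertain, and Hspa1b was named after its values were seen.

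The cytosolic HSP90 genes parted. Hsp90ab1, the constitutive HSP90 beta (ENSMUSG00000023944, mm10 chromosome 17, 45567775 to 45573271, minus strand), had 2876 under the LacZ hairpin and 2911 under the Pspc1 hairpin. Its log2 ratio of 0.02 (interval 0.01 to 0.03) turned to -0.09 when scaled by total reads and to -0.05 after the length and GC correction. Hsp90aa1, the inducible HSP90 alpha (ENSMUSG00000021270, mm10 chromosome 12, 110690605 to 110702728, minus strand), had 28.8 under the LacZ hairpin and 10.1 under the Pspc1 hairpin. That is 2.85-fold lower, from 1878 and 512 reads, with a log2 ratio of -1.47 and an interval of -1.66 to -1.37. Its mean of 19.4 was under the minimum of 50, so it was not counted in the rule. With a minimum of 10, chosen after its value was seen, Hsp90aa1 would be called lower, along with 1.53% of 7390 genes (0.880% were higher), and it held rank 25 from the lowest ratio among them. Per kb of merged exons, Hsp90ab1 exceeded Hsp90aa1 131-fold in the control library and 378-fold in the knockdown library. Of the words of Hsp90aa1, 47.5% occur in 4 other annotated genes, mostly in Gm12346, against 3.44% for Hsp90ab1. None of those 4 genes was listed. The part of shared sequence in the low level of Hsp90aa1 was not tested.

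Hsf1, the master regulator of the heat shock response, did not differ beyond counting error in the values as deposited. It (ENSMUSG00000022556, mm10 chromosome 15, 76477422 to 76501913, plus strand) had 96.7 under the LacZ hairpin and 98.4 under the Pspc1 hairpin, with a log2 ratio of 0.03 and an interval of -0.03 to 0.08. The scaling set its sign: the log2 ratio was -0.08 by total reads and 0.07 by the trimmed mean of M values. The ribosome biogenesis gene Bop1 starts 145 bp away on the other strand and had 320 and 365. HSF1 acts largely through its trimer formation and modification, which RNA levels do not show.

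Bag3 is a nucleotide exchange factor that links HSP70 to small heat shock proteins, HSPB8 above all, and sends aggregated proteins to autophagy. Its value was 69.6 under the LacZ hairpin and 106.0 under the Pspc1 hairpin, a log2 ratio of 0.60 (interval 0.55 to 0.66) on chromosome 7, 128523616 to 128546981, plus strand. Dnajb1, a J-domain protein that activates the ATPase of HSP70, had 92.1 under the LacZ hairpin and 128.7 under the Pspc1 hairpin. Its log2 ratio was 0.48 (interval 0.43 to 0.53), on chromosome 8, 83608193 to 83612653, plus strand. Tecr, which starts 222 bp from Dnajb1 on the other strand, had 132 and 155. Hsph1, an HSP110 protein that frees HSP70 from ADP, went the other way, with 107.8 under the LacZ hairpin and 78.7 under the Pspc1 hairpin. Its log2 ratio was -0.45 (interval -0.51 to -0.40), on chromosome 5, 149614287 to 149636376, minus strand. None of these 3 co-chaperone genes reached 2-fold. Bag3 and Hsph1 share no 50-base word with any other annotated gene.

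Heat shock elements, the sites HSF1 binds, are inverted repeats of a short unit. The RefSeq promoter table (GRCm38.p6, the build of mm10) held windows for 5 of the 10 symbols: Hspb1, Bag3, Hsph1, Dnajb1 and Hspb8. Each window runs from 250 bases before the start to 50 after it. Windows were searched on either strand for GAANNTTC or TTCNNGAA, which read the same on the other strand and can overlap each other. Of 32851 windows 15.1% held at least 1 match and 1.96% at least 2. The windows of 3 members with values above are shown because Hspb1 and Bag3 had higher values in the knockdown library and Hsph1 a lower one, and capitals mark the matches.
Hspb1, chr5:135887669-135887968, plus strand: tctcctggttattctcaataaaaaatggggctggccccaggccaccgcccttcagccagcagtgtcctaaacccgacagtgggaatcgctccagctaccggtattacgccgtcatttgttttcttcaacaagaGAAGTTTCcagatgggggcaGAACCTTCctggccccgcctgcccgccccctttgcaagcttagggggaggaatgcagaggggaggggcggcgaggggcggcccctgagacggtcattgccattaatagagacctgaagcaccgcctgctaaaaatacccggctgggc
Bag3, chr7:128523333-128523632, plus strand: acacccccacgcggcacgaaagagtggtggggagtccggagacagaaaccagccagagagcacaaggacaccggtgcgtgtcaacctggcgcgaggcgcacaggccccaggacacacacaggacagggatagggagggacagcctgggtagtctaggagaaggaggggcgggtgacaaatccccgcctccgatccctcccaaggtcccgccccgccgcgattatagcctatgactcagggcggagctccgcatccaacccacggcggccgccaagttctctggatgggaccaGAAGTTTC
Hsph1, chr5:149636287-149636586, minus strand: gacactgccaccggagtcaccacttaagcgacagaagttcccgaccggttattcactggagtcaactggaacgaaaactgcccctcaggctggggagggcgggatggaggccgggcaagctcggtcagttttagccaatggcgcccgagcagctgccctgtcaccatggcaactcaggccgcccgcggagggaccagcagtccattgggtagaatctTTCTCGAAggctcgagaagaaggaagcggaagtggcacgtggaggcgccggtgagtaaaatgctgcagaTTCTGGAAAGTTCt
Hspb1 held 2 matches, at -117 to -110 and -97 to -90 from the start. Bag3 held 1, at 43 to 50, where the start itself is 1. The bases that follow the RefSeq start were found in GENCODE transcripts for Hspb1 and Hsph1, but not for Bag3 or Dnajb1. Positions for those 2 genes rest on RefSeq alone. The window of Hsph1 held 3, at -33 to -26, 37 to 44 and 42 to 49, of which the latter pair overlap and form an element of 3 units, found in 0.603% of windows. The other window of Hsph1 overlaps this one and holds the same matches. Neither of the 2 windows of Dnajb1 held a match, and 1 of them (83608298 to 83608597) lies inside the gene. The window of Hspb8, which has no value here, held 1 match, at 3 to 10. Cryab, Hspa8, Hsf1 and both HSP90 genes had no window. The windows printed were picked with the directions of their genes known, so those directions say nothing about the matches. A part of heat shock elements in these values was not tested. A match is a run of letters and was not tested as a site.

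**Figure D3:**
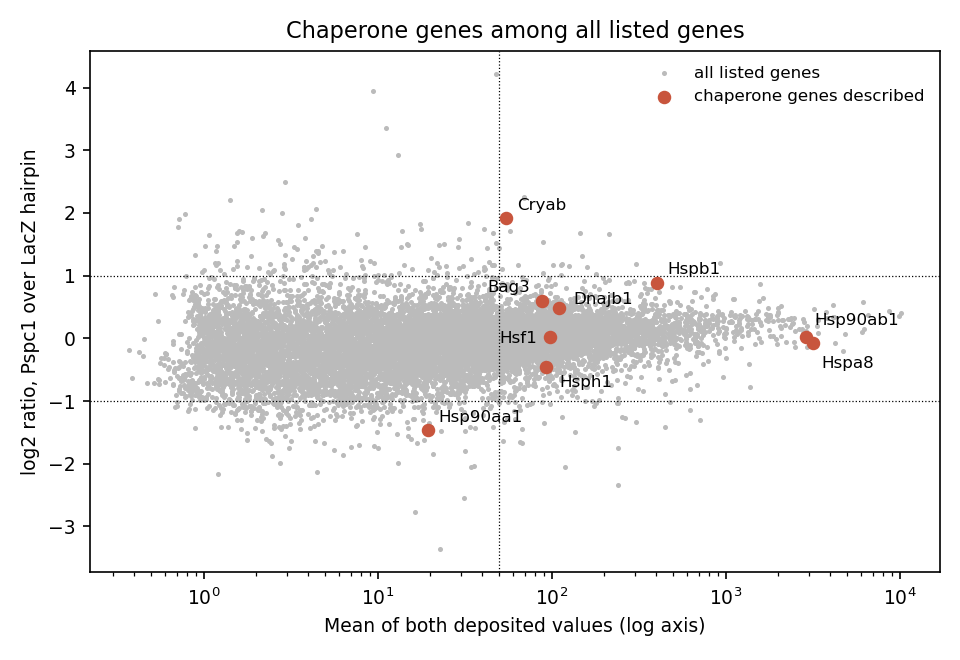
log2 ratio of knockdown over control (vertical) against the mean of both values (horizontal log axis) for all 11405 listed genes (grey) and the 9 genes described (red). Dotted lines mark 2-fold and a mean of 50. Cryab sits just right of the minimum among the highest ratios, and Hsp90aa1 sits left of it at -1.47.

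Per kb of merged exons, the order of levels in the control library ran from Hsp90ab1 (959) and Hspa8 (759) through Hspb1 (273) to Dnajb1 (28.7), Bag3 (27.2), Cryab (15.4), Hsph1 (14.8), Hsf1 (13.6) and Hsp90aa1 (7.32). In the knockdown library Cryab stood at 58.9 per kb, above Bag3 (41.4) and Dnajb1 (40.2). The spread of these levels between cultures was not measured, so neighbours such as Cryab, Hsph1 and Hsf1 in the control library cannot be ordered firmly. Of the 8 members of mean 20 or more, 6 had a ratio above 1, against 55.0% of the 5892 genes tested. That count was 4 when scaled by total reads and 5 after the length and GC correction. The 55.0% belongs to the values as deposited, and no such share is given for either alternative. Total-read scaling lowered ratios across the whole series, with a median shift of -0.10 log2. These 2 counts therefore cannot be set against 55.0%. The median log2 ratio was 1.40 over the 2 small heat shock protein genes and 0.02 over the other 7 listed members, whose ratios ran from -1.47 to 0.60. For all genes of mean 20 or more the median was 0.04.

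In 6 of 7 wider families of chaperones the median log2 ratio lay between -0.005 and 0.07, while the other HSP70 and HSP110 genes had -0.42. Over all genes of mean 20 or more, 55.0% had a ratio above 1. Genes of mean at least 50 numbered 2 in the other HSP70 and HSP110 family, 6 J-domain, 3 exchange factor and 13 HSP90 co-chaperone genes. There were 12 of TRiC and prefoldin, 8 mitochondrial and 10 of the endoplasmic reticulum. Of these, 1 met the rule, where 0.551% of all genes were called higher and 0.937% lower. The called gene was Unc45a, a co-chaperone of HSP90 that folds myosin, with 77.2 under the LacZ hairpin and 172.9 under the Pspc1 hairpin (log2 ratio 1.16). Of 22 HSP90 co-chaperone genes 19 had a mean of at least 20, with 9 ratios above 1 and a median log2 ratio of -0.003. Tomm34 (72.9 and 94.5), the kinase adaptor Cdc37 (630 and 774), Fkbp8 (380 and 469) and the ATPase activator Ahsa1 (208 and 243) did not meet the rule. In the HSP70 and HSP110 family 3 of the 4 other measured genes had ratios below 1, with a median of -0.42. Hspa4, an HSP110 protein like Hsph1, had 112.1 and 77.0, and Hspa12b, a distant family member of endothelial cells, 76.4 and 52.9.

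Other J-domain genes divided, with 6 of 11 ratios above 1 and a median of 0.05. Dnaja1 had 68.0 and 49.5, Dnaja2 119 and 102, Dnajb6 72.4 and 62.9, and Dnajc5 254 and 272. Among 5 other exchange factors 4 had ratios above 1 (median 0.07), led by Hspbp1 with 78.4 and 112.8. Bag1 had 165 and 175, and Bag6 388 and 392. The TRiC chaperonin, which folds actin and tubulin, and prefoldin had 7 of 14 ratios above 1 (median -0.005). Cct8 had 197 and 149, Tcp1 219 and 191, Pfdn5 127 and 151, and Pfdn2 68.1 and 77.0. None of these genes met the rule.

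Chaperones of other compartments were measured as well. Mitochondrial chaperones had 5 of 10 ratios above 1 (median 0.03), with 132 and 90.5 for Hspd1, the mitochondrial HSP60, and 174 and 214 for the protease Lonp1. Hspa9 had 136 and 118, and Grpel1 174 and 200.5. In the endoplasmic reticulum 9 of 12 ratios were above 1 (median 0.07). Hspa5, the HSP70 known as BiP, had 324 and 232, Serpinh1, the collagen chaperone HSP47, 1675 and 2334, Dnajc10 60.4 and 45.6, and Sdf2l1 67.7 and 86.4. No gene of either list met the rule.

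**Figure D4:**
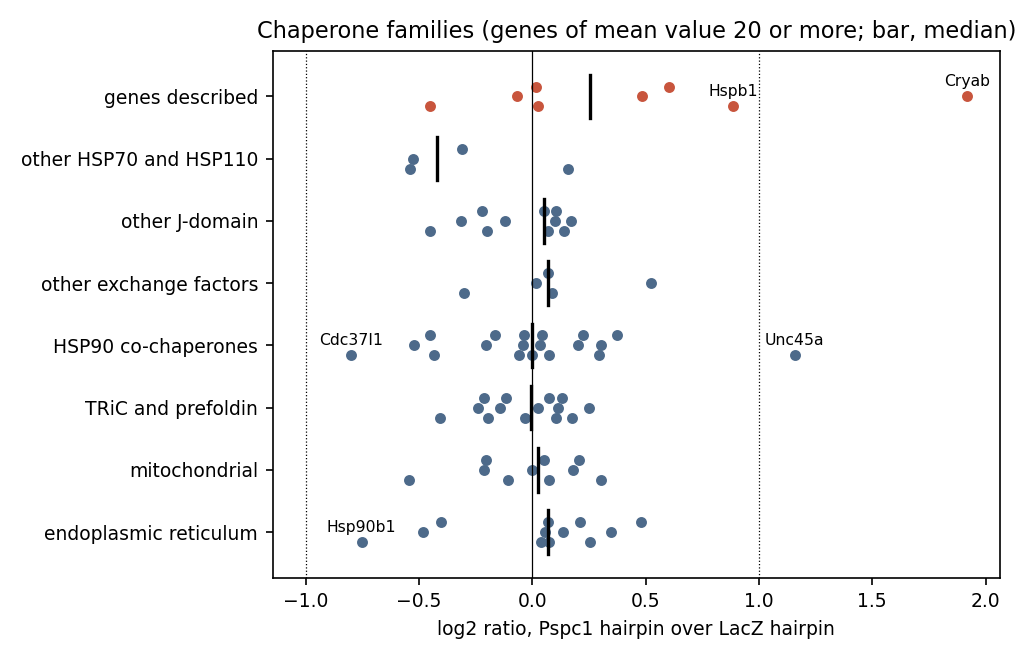
log2 ratio of knockdown over control for each gene of mean 20 or more (points), by family, with the family's median as a black bar and dotted lines at 2-fold. Cryab and Unc45a pass 2-fold, Hspb1 comes next, and the medians of 6 of the 7 families of other chaperones lie between -0.005 and 0.07, with the other HSP70 and HSP110 genes at -0.42.

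Of 30 genes known to be bound by HSF1, 8 of them described above, 24 had a mean of at least 20. They gave 13 ratios above 1 and 11 below, with a median of 0.01. Of the 21 with a mean of at least 50, 1 was called higher (Cryab) and 0 lower. Hsp90aa1 is on the list, but its mean of 19.4 kept it out of these counts. Over all genes 55.0% had a ratio above 1, 0.551% were called higher and 0.937% lower, so the share of ratios above 1 in the list is near the background. Of the 25 with a RefSeq promoter window, 13 held a heat shock element match, where 17.0% of all 27025 genes did. The list was chosen as genes bound by HSF1, so this share follows from the choice and says nothing about the 2 libraries. Other heat shock factors and regulators of HSF1 had 3 of 7 ratios above 1. The kinase gene Mapk3 had 284.5 and 377, Hsbp1, which binds HSF1, had 80.3 and 92.3, and Eef1a1 had 5966 and 6597.

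Genes of chaperone-assisted selective autophagy, the pathway of BAG3 and HSPB8, had 12 of 16 ratios above 1, where all genes gave 55.0%. Their median log2 ratio was 0.11, and 0.005 when scaled by total reads, a scaling that shifted the median of all genes by -0.10. Of the 11 with a mean of at least 50, 0 were called, where 1.49% of all genes were called in either direction. The list includes 2 members described above, Bag3 and Hspa8. The filamin genes Flnc (740 and 505) and Flna (1534 and 1887), whose proteins this pathway clears when damaged, went opposite ways, and Map1lc3b, an autophagosome protein, had 160 and 196. Among 10 measured clients and partners of small heat shock proteins 3 ratios were above 1 (median -0.09). Of the 9 with a mean of at least 50, 1 met the rule as lower, where 0.937% of all genes did. It was Cycs, cytochrome c, which HSPB1 can bind (201 and 71.0). Actb had 5761 and 7466, Ywhaz 468 and 391, and Mapk14, the p38 kinase upstream of HSPB1 phosphorylation, 164 and 147.

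The ratios of chaperone genes moved with base composition, the share of G and C in the transcripts. Over the members and 7 families of other chaperones, with the unmeasured small heat shock proteins left aside, 83 genes had a mean of at least 20. Bounds on GC content were set so that 4 bins held near-equal numbers of all genes. In the bin of lowest GC content (up to 48.4%) 5 of 28 chaperone genes had a ratio above 1, with a median log2 ratio of -0.23. In the highest bin (above 55.8%) it was 14 of 17, with a median of 0.20. All genes moved the same way, with medians of -0.14 and 0.13 and with 33.6% and 67.4% of ratios above 1. Transcripts of Hspb1 were 61.2% GC, of Bag3 56.1% and of Cryab 53.4%, against 47.3% for Hsph1 and 44.9% for Hsp90aa1. Hspb1 was also the shortest member, with 1031 bp of merged exons, and Hsph1 the longest with 7266 bp. After a correction fitted on length and GC content over all genes of mean 20 or more, the log2 ratio was 1.72 for Cryab, still rank 3 of 3629. It was 0.64 for Hspb1 (rank 85), 0.47 for Bag3, 0.41 for Dnajb1, -0.29 for Hsph1 and -1.33 for Hsp90aa1. These 6 directions held, and all 6 log2 ratios came closer to 0. That does not hold for all members. Hsf1 moved from 0.03 to 0.07, Hsp90ab1 turned from 0.02 to -0.05, and Hspa8 moved from -0.07 to -0.05. The origin of the relation with GC content was not tested.

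**Figure D5:**
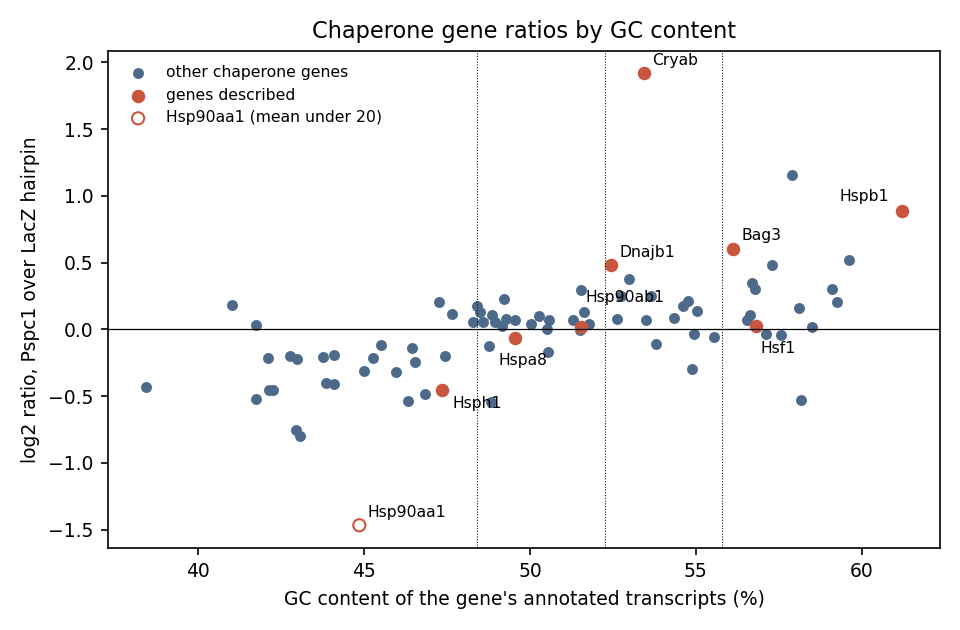
log2 ratio of knockdown over control (vertical) against the GC content of the gene's annotated transcripts in percent (horizontal) for 75 other chaperone genes (blue) and the genes described (red, Hsp90aa1 open because its mean is under 20). Dotted lines are the bounds of the 4 bins. Ratios lie mostly below 0 left of 48.4% and mostly above 0 right of 55.8%. Cryab and Hsp90aa1 lie far from the other genes drawn of like GC content. Other chaperone genes of mean under 20 are not drawn, among them Vbp1 (log2 ratio -1.37, 37.9% GC).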

How the data were processed

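Poly-A RNA of MS1 cells was measured in 2 libraries, 1 per group, grouped by the treatment label. The submitters' processing notes name build mm10 and, without a role, DESeq 1.39.0, featureCounts 2.0.0, Trimmomatic 0.39 and HISAT2 2.1.0. For the annotation, strand setting, scaling formula and treatment of multiply mapping reads, details are not given in the sources used here. Values per gene are a signal that the authors scaled and deposited. Each is a whole multiple of 1 step per library (100% within 0.01 reads), 0.0153 in the control and 0.0197 in the knockdown library, and reads are values divided by that step. These inferred reads were used for depth and counting intervals alone, and no count test was run. From the deposited signal, log2 ratios with a pseudocount of 0.5 were computed. Exact Clopper-Pearson intervals at 95% cover counting error only, since each group is 1 library. Reads carry no molecular identifiers, so amplified copies count as separate reads and the intervals can be too narrow. The median interval width was 0.10 log2 among genes of mean 50 or more.

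Symbols were found for 11399 of 11405 identifiers. Positions, merged exon lengths (11405 genes) and GC content (11399) were taken from GENCODE M21 (also mm10). The correction for length and GC was a quadratic fit of the log2 ratio on both. Shared 50-base words were counted over all annotated transcripts. Promoters came from RefSeq. Calculations used Python 3.11.15, numpy 2.4.6, pandas 2.3.3 and scipy 1.17.1, with figures from matplotlib 3.10.9, and were tested on simulated data.

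The members, 12 gene lists and 6 marker lists were chosen with earlier results of these data known. The text names all members, list genes that met the size rule, and up to 4 others per list of mean 50 or more by size of change. A gene that this rule would name is not reported here. It also names the 3 genes nearest in ratio to a called member, and listed genes that start beside a member. Other scalings, pseudocounts, minimum values and folds were tried as alternatives. The design had named a fallback scaling for unscaled counts, which was not needed.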

Additional observations from a re-analysis of the deposited data

How the results depend on the processing

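Of the counts over members, the number called higher was 1 under 8 of 10 alternatives, always Cryab. It became 0 with a minimum mean of 100 and 3 at 1.5-fold. The number called lower was 0 in all alternatives except a minimum mean of 10, which was chosen after seeing the data and called 1 (Hsp90aa1). The difference of 1.38 between the median log2 ratios of small heat shock proteins and other members was 1.23 after the length and GC correction and at most 1.52 otherwise. Among the pathway lists 2 genes were called (Cycs and Unc45a), and a minimum mean of 10 added Vbp1. Over all genes, the median log2 ratio shifted by -0.10 with total-read scaling. The log2 ratio of Cryab ranged from 1.72 to 1.97, of Hspb1 from 0.64 to 0.94, of Bag3 from 0.47 to 0.65, of Dnajb1 from 0.38 to 0.53, of Hsph1 from -0.56 to -0.29 and of Hsp90aa1 from -1.57 to -1.16. Signs turned for Hsf1 (-0.08 to 0.07) and Hsp90ab1 (-0.09 to 0.07). Family medians turned sign under at least 1 alternative, except those of the HSP70 and HSP110 family, of selective autophagy and of clients and partners. No paired analysis was possible because each group has 1 library, and for the same reason no replicate could be left out. The fewest inferred reads behind a member's value were 512, and the spread between replicates was not measured.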

Other observations

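A few chaperone genes of low value were not described above. Hsp90b1, the HSP90 of the endoplasmic reticulum (GRP94), had 26.3 under the LacZ hairpin and 15.4 under the Pspc1 hairpin, while its partner Hspa5 had 324 and 232. Its GC content was low, at 42.9%, as was that of Hsp90aa1 at 44.9%. Cdc37l1, a relative of Cdc37, had 27.9 and 15.8 (log2 ratio -0.80, 43.1% GC), the lowest ratio among the 83 chaperone genes of mean 20 or more. Vbp1, a prefoldin subunit, had 17.1 and 6.28 (log2 ratio -1.37, 37.9% GC), although the other prefoldin genes listed had log2 ratios between -0.22 and 0.25. The heat shock factor gene Hsf2 had 3.03 and 1.42. These genes were chosen after their values were seen.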
